A study of Mus musculus with 11 samples.

Results

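The 8 receptor genes for lysophosphatidic acid (LPA) and sphingosine 1-phosphate (S1P) were followed through lung tissue of mice given aspirin, triptolide or both. The 5 LPA receptor genes were Lpar4, Lpar1, Lpar2, Lpar3 and Lpar6, and the 3 S1P receptor genes were S1pr1, S1pr2 and S1pr3. These 8 genes were taken by symbol from the 19938 genes measured, and each was represented by 1 row of the expression table. Lpar4 was the lead gene, chosen for its low values in every treated group against control, so all differences from control are given here as descriptions without a test.

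The study measured gene expression in lung tissue of 129S1 mice on 11 Affymetrix mouse gene arrays, 1 array for each sample. It asked how aspirin, an inhibitor of cyclooxygenases, and triptolide, a plant diterpenoid that blocks transcription, act on the lung alone and together, in a project on preventing lung cancer. The labels give no tumour, carcinogen or genetic alteration for any group. The groups were untreated controls (2 arrays), aspirin at 4 mg per kg body weight (3 arrays), triptolide at 1 mg per kg (3 arrays) and a combination of both drugs at these doses (3 arrays), with the drugs given by gavage in PBS on 5 days a week for 2 months. The titles call the controls untreated while the protocol lists a PBS group, and whether the controls were gavaged is not settled by the labels. Sex, age and time of collection are not in the labels, which also do not say that the samples of a group came from separate animals. The p-values below therefore measure only the spread between these samples, which may be technical.

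LPA and S1P are lipids with 1 fatty chain that circulate in blood and act from outside the cell on G protein-coupled receptors. In vessels, S1P acting on S1pr1 through Gi tightens the endothelial barrier and guides lymphocytes out of tissue, while S1pr2 and S1pr3 also couple to G12/13 and Gq. Lpar1, Lpar2 and Lpar3 belong to the same receptor family as the S1P receptors, whereas Lpar4 and Lpar6 are closer to the P2Y purine receptors and act on endothelial cells and vessel formation. Values below are log2 expression values, on which a difference of 1 is a doubling. Different genes have different probes, so levels are compared between groups within a gene and never between genes.

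Lpar4 lies on the X chromosome (RefSeq, GRCm38.p6, chrX:106920625-106933899, plus strand), and its promoter window is shown because it is the lead gene. All 3 S1P receptor genes were lower on the combination arrays than on the control arrays without overlap, as were 20.5% of all genes. The windows of S1pr2 and S1pr3 are shown for comparison with Lpar4, and S1pr1 is named only. Each window runs from 250 bases before the start to 50 bases after it, read 5′ to 3′ on the gene's strand. In the same table Lpar1 lies at chr4:58435252-58554027, Lpar2 at chr8:69822565-69831102, Lpar3 at chr3:146220961-146286214 and Lpar6 at chr14:73237891-73240358. The S1P receptor genes lie at chr3:115710433-115715055 (S1pr1), chr9:20965952-20976793 (S1pr2) and chr13:51408618-51422797 (S1pr3). The windows are chrX:106920375-106920674 for Lpar4 (plus strand), chr9:20976744-20977043 for S1pr2 (minus strand) and chr13:51408368-51408667 for S1pr3 (plus strand). Capitals mark matches, on either strand, to the GC box GGGCGG, the CCAAT box CCAAT, the KLF-type motif CACCC, the TEAD-type motif GGAATG and the TATA box TATAAA.
Lpar4: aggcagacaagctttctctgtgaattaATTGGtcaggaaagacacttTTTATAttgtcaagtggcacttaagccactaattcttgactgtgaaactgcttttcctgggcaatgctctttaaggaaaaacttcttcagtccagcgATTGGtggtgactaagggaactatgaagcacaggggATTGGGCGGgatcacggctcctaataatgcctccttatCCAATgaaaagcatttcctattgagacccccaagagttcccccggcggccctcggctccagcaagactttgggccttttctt
S1pr2: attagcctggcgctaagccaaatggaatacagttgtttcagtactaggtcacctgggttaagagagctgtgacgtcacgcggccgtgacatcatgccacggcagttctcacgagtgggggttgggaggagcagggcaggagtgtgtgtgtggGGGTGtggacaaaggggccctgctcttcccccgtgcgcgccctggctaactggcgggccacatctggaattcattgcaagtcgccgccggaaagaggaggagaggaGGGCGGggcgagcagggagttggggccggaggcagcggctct
S1pr3: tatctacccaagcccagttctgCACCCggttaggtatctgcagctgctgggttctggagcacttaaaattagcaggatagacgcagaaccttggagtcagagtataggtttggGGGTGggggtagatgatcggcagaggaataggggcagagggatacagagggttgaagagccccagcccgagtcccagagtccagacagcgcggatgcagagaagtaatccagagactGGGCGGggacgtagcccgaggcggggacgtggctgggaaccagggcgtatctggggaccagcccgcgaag

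The Lpar4 window held 4 CCAAT matches, 1 GC box match and 1 TATA box match, and 1 of the CCAAT matches overlapped the GC box. The TATA box match was on the opposite strand, in the upstream part of the window. At least 4 CCAAT matches were present in 1.06% of the 32851 RefSeq promoter windows searched, and at least 1 in 37.4%. The S1pr2 and S1pr3 windows held no CCAAT match. Each of the 3 windows held 1 GC box, a motif found in 35.7% of all windows. The CACCC motif, present in 57.5% of all windows, occurred 1 time in S1pr2 and 2 times in S1pr3 but not in Lpar4. The TATA box and the TEAD-type motif were present in 13.6% and 14.7% of all windows. The Lpar4 window had a GC content of 46.7%, against 62.0% for S1pr2, 59.0% for S1pr3 and a median of 52.7% over all windows. A match is a description of letters and not evidence of binding.

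The lung markers Sftpc, the surfactant protein of type 2 alveolar cells, and Scgb1a1, the secretory protein of club cells, were at 13.62 or above on all 11 arrays. Array medians ran from 8.135 to 8.254. The array of combination replicate 1 stood apart on the first principal component, with a score of 60.2 against -15.0 to 6.8 for the other 10 arrays, on a component that held 45.5% of the variance. Most receptor differences and correlations, and the pathway counts at an unadjusted p under 0.05, are therefore given with and without it. Differences of marker genes, single pathway genes and gene lists are given with all arrays only. Arrays also differed in sex-linked genes: Xist, which is transcribed from the inactive X, was at 11.98 to 12.8 on all control and combination arrays and at 6.77 to 7.0 on the aspirin arrays. On the triptolide arrays, Xist was at 12.32, 9.75 and 6.61. Eif2s3y, Uty and Kdm5d are Y-linked, and Eif2s3y was at 4.58 to 6.76 on control and combination arrays, at 9.26 to 9.48 on aspirin arrays and at 6.39, 9.82 and 9.56 on triptolide arrays. Triptolide replicate 2 had an Xist value between the others together with the highest values of all 3 Y-linked genes. Every comparison below except combination against control thus sets arrays side by side that also differ in sex-linked expression. For triptolide against control or combination, this holds for Xist and the Y-linked genes of replicates 2 and 3.

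Lpar4, a receptor for LPA that couples to several G proteins, was lower on all 9 treated arrays than on both control arrays. It was at 7.97 and 7.91 on the control arrays, at 7.48, 7.36 and 7.36 with aspirin, at 7.4, 7.44 and 7.44 with triptolide and at 7.12, 7.08 and 7.33 with the combination. The control arrays were highest, the single-drug arrays formed a narrow band that overlapped between the drugs, and the 3 combination arrays lay below that band. The group means were 7.94 ± 0.05 (SD, n = 2), 7.4 ± 0.07 (SD, n = 3), 7.43 ± 0.02 (SD, n = 3) and 7.17 ± 0.14 (SD, n = 3) in that order. The differences from control were -0.54 ± 0.096 (SE) with aspirin, -0.51 ± 0.096 with triptolide and -0.76 ± 0.096 with the combination. These 3 comparisons share the control arrays. Without combination replicate 1, the last difference was -0.73.

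The level of Lpar4 and its chromosome bear on the Lpar4 values. The mean of Lpar4 over the 11 arrays was 7.44, within the lowest 25% of gene means, which ended at 7.48, and the values come with no detection call. Lpar4 is X-linked, and Xist differed between arrays. Within the triptolide group Xist was at 12.32, 9.75 and 6.61 and Lpar4 at 7.4, 7.44 and 7.44. Combination and control arrays were both high in Xist, at a Lpar4 difference of -0.76. Over the 739 X-linked genes measured, the median difference from control was -0.024 with aspirin, -0.031 with triptolide and 0.01 with the combination. Of these genes, 16, 7 and 15 lay further below control than Lpar4 in the same order. Once the Y-linked level entered the fit as a covariate, the Lpar4 differences from control were -0.65, -0.6 and -0.78. The part of sex-linked expression in the Lpar4 values was not tested further.

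The other LPA receptor genes had no such separation of treated from control arrays. Lpar1, which signals through Gi, Gq and G12/13 and is active in lung fibroblasts, was at 9.56 and 9.62 in controls, at 9.54 to 9.68 with aspirin, at 9.6 to 9.86 with triptolide and at 9.43, 9.74 and 9.8 with the combination. Its groups overlapped, and the combination array with the low value was replicate 1. Lpar2 varied least among the groups, with means of 7.88 ± 0.05 (SD, n = 2), 7.88 ± 0.11 (n = 3), 7.88 ± 0.01 (n = 3) and 7.87 ± 0.03 (n = 3) from control to combination. Lpar3 was at 8.73 and 8.91 in controls, at 8.94, 9.04 and 9.03 with aspirin, at 8.95, 8.98 and 8.87 with triptolide and at 8.49, 8.84 and 8.93 with the combination. Every aspirin array lay above both controls for Lpar3, and the share of all genes for which this was so was not counted. The low value of Lpar3 belonged to combination replicate 1. Lpar6, a P2Y-type LPA receptor like Lpar4, was at 9.4 and 9.51 in controls, at 9.35 to 9.4 with aspirin, at 9.18 to 9.47 with triptolide and at 8.91, 9.5 and 9.23 with the combination. The combination arrays of Lpar6 ran from below every other array to 9.5, within the control range.

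The 3 S1P receptor genes were lower on every combination array than on both control arrays, which was so for 20.5% of all genes. S1pr1, the Gi-coupled receptor of endothelial cells and lymphocytes, was at 11.5 and 11.38 in controls, at 11.14, 11.64 and 11.2 with aspirin, at 11.35, 10.97 and 11.51 with triptolide and at 10.77, 10.86 and 11.09 with the combination. The single-drug arrays of S1pr1 fell on both sides of the controls. S1pr2, which couples to G12/13 and restrains cell migration, was at 9.9 and 9.79 in controls, at 9.79, 9.64 and 9.81 with aspirin, at 9.67, 9.81 and 9.69 with triptolide and at 9.19, 9.61 and 9.58 with the combination. The lowest S1pr2 value was that of combination replicate 1, and the other 2 combination arrays were still below every other array. S1pr3, which couples to Gi, Gq and G12/13, was at 11.3 on both control arrays, at 11.29, 11.26 and 11.26 with aspirin, at 10.84, 11.08 and 11.33 with triptolide and at 10.49, 10.92 and 11 with the combination. For S1pr3 the control and aspirin arrays were close together, and the triptolide arrays spread from the range of the combination to just above that of the controls.

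**Figure D1:**
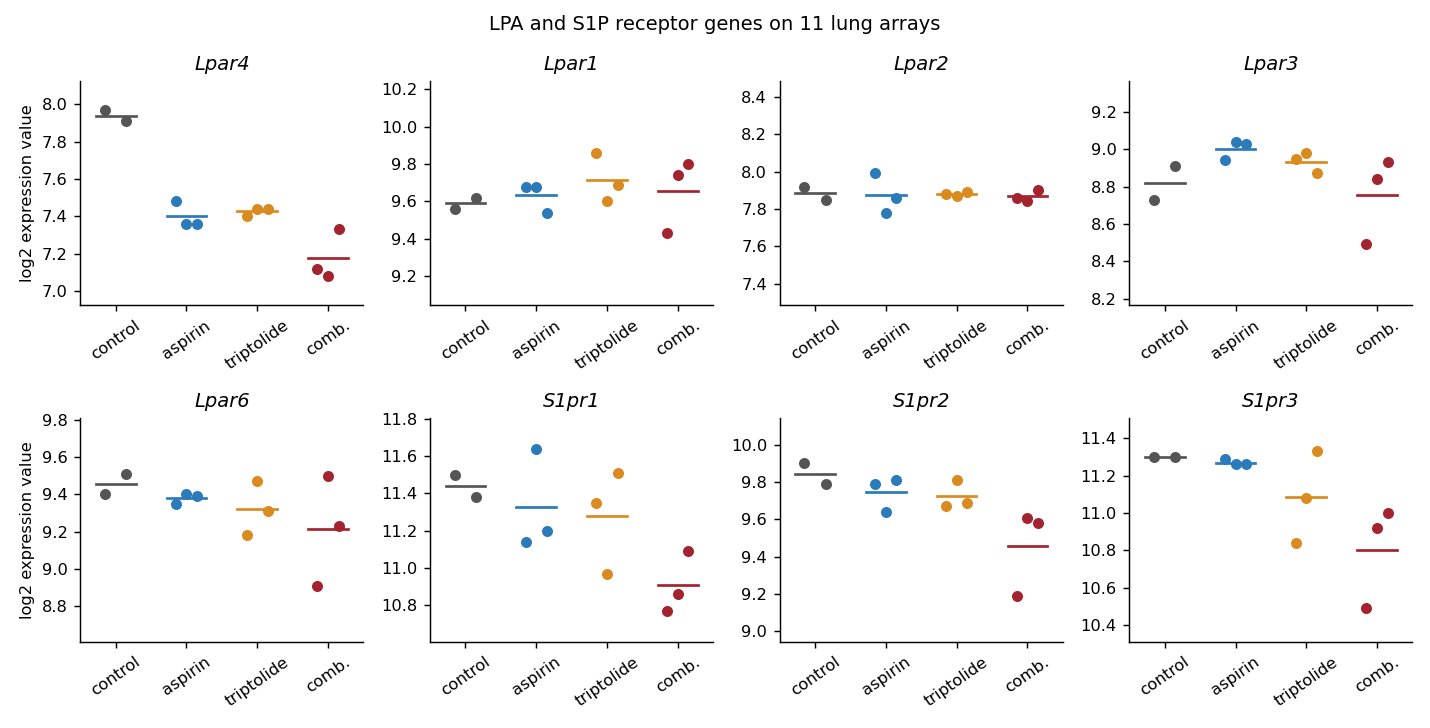
Log2 expression value (vertical axis, its own range in each panel) of the 8 receptor genes on the 11 arrays, by group (comb., combination), with points for arrays and lines for group means. The Lpar4 points of all 9 treated arrays sit at 7.48 or below and those of both controls at 7.91 or above, while the Lpar2 group means are 7.87 or 7.88.

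Against control, the differences of S1pr1, S1pr2 and S1pr3 were -0.53 ± 0.18 (SE), -0.38 ± 0.13 and -0.49 ± 0.16 with the combination. With aspirin they were -0.11, -0.1 and -0.026, and with triptolide -0.16, -0.12 and -0.21. Lpar1, Lpar2, Lpar3 and Lpar6 differed from control by 0.067, -0.011, -0.072 and -0.25 with the combination. Of the 8 receptor genes, 4 had all combination arrays below both controls (Lpar4, S1pr1, S1pr2 and S1pr3), beside 20.5% of all genes. All aspirin arrays lay below both controls for 3 receptor genes (Lpar4, Lpar6 and S1pr3), beside 16.0% of all genes, and all triptolide arrays did so for Lpar4 alone among the 8, beside 13.3%. The median difference of the 8 genes from control was -0.05 with aspirin, -0.13 with triptolide and -0.31 with the combination, against all-gene medians of -0.005, -0.015 and 0.012. Since Lpar4 was chosen on these contrasts, nothing is read from the counts. Leaving out combination replicate 1 changed the combination differences to -0.46 for S1pr1, -0.25 for S1pr2 and -0.34 for S1pr3, and that of Lpar3 from -0.072 to 0.06. Leaving out an array cannot make separated groups overlap, so Lpar4, S1pr1, S1pr2 and S1pr3 stayed apart by construction. No overlap in this direction was then seen for 28.4% of all genes. Under the Y-linked covariate, the S1pr3 differences were -0.38 with aspirin, -0.49 with triptolide and -0.54 with the combination, and those of Lpar1 with aspirin and triptolide went from 0.043 and 0.13 to 0.27 and 0.31.

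The comparison of the combination with aspirin alone asks what triptolide added. It shares the combination and aspirin arrays with the contrasts on which Lpar4 was chosen, and the genes were chosen with earlier results of these data known, so its unadjusted p-values are not free of that choice. S1pr3 was lower with the combination, by a difference of -0.47 ± 0.15 (SE; 95% confidence interval -0.79 to -0.15). S1pr1 differed by -0.42 ± 0.16 (-0.78 to -0.058), S1pr2 by -0.28 ± 0.11 (-0.54 to -0.029), Lpar3 by -0.25 ± 0.11 (-0.5 to -0.0046) and Lpar4 by -0.23 ± 0.085 (-0.41 to -0.036). For these 5 genes every combination array lay below every aspirin array, which was so for 9.86% of all genes, and the unadjusted limma p was under 0.05, which was so in this direction for 8.22% of all genes. None of the 8 passed the test: the adjusted p by limma with Benjamini-Hochberg adjustment over all genes was 0.236 for S1pr3, 0.342 for Lpar4, 0.356 for S1pr1, 0.372 for S1pr2 and 0.418 for Lpar3. Over all 19938 genes limma called 0 (0.0%), with 2322 at an unadjusted p under 0.05 and a smallest adjusted p of 0.0643.

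Lpar6 differed from aspirin by -0.17 (-0.47 to 0.13), Lpar1 by 0.024 (-0.22 to 0.27) and Lpar2 by -0.0068 (-0.18 to 0.16), with overlapping groups. The median over the 8 genes was -0.24 and that over all genes 0.0, with 7 of the 8 and 50.0% of all genes below 0. Without combination replicate 1, S1pr3 alone of the 5 stayed at an unadjusted p under 0.05, beside 5.33% of all genes in this direction. Leaving out an array cannot make separated groups overlap, so the 5 genes stayed apart by construction. No overlap in this direction was then seen for 13.1% of all genes. The values were then -0.31 for S1pr3, -0.35 for S1pr1, -0.15 for S1pr2, -0.12 for Lpar3, -0.019 for Lpar6, 0.14 for Lpar1 and -0.2 for Lpar4. Leaving out each array in turn gave S1pr1 from -0.52 to -0.26, and its highest aspirin value, 11.64, was on replicate 2. In the fit with the Y-linked covariate, S1pr3 was at -0.15 and Lpar4 at -0.13, while S1pr1 was at -0.47, S1pr2 at -0.23 and Lpar3 at -0.26. In that fit 0 of the 8 receptor genes had an unadjusted limma p under 0.05, and the count over all genes was 351 in place of 2322. All aspirin arrays were high and all combination arrays low in Y-linked genes. This fit therefore cannot tell the Y-linked level from the drugs, and nothing is read from the fall in these counts.

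The comparison of the combination with triptolide alone asks what aspirin added, and it uses the same combination arrays. Both groups also entered the contrasts on which Lpar4 was chosen, so the unadjusted p-values here are not free of that choice. All 8 receptor genes had a lower mean with the combination. S1pr1 differed by -0.37 ± 0.16 (SE; 95% confidence interval -0.73 to -0.0053), S1pr2 by -0.26 ± 0.11 (-0.52 to -0.0074) and Lpar4 by -0.25 ± 0.085 (-0.44 to -0.066), the 3 genes with an unadjusted limma p under 0.05, as had 10.1% of all genes in this direction. Every combination array lay below every triptolide array for Lpar4 and S1pr2 (9.53% of all genes), while S1pr1 overlapped. By limma with Benjamini-Hochberg adjustment none passed, with an adjusted p of 0.353 for Lpar4, 0.364 for S1pr2 and 0.365 for S1pr1, and limma called 0 (0.0%) of all genes, with 2703 at an unadjusted p under 0.05.

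S1pr3 differed from triptolide by -0.28 (-0.6 to 0.04), Lpar3 by -0.18 (-0.43 to 0.069), Lpar6 by -0.11 (-0.4 to 0.19), Lpar1 by -0.06 (-0.31 to 0.19) and Lpar2 by -0.011 (-0.18 to 0.16). The median over the 8 genes was -0.22, against 0.019 over all genes, of which 46.7% were below 0. Without combination replicate 1, Lpar4 alone of the 8 stayed at an unadjusted p under 0.05, at a difference of -0.23, beside 5.0% of all genes in this direction. The same array moved S1pr3 to -0.12, S1pr2 to -0.13, S1pr1 to -0.3, Lpar3 to -0.05, Lpar6 to 0.042 and Lpar1 to 0.056. The Y-linked covariate put S1pr3 at -0.042, Lpar4 at -0.18 and S1pr1 at -0.41. Under it 0 of the 8 receptor genes had an unadjusted limma p under 0.05, and the count over all genes was 91 in place of 2703. Triptolide replicates 2 and 3 were high and the combination arrays low in Y-linked genes, so nothing is read from this fall.

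Between the single drugs the receptor genes had small differences. Triptolide minus aspirin was 0.029 for Lpar4 (95% confidence interval -0.16 to 0.22), -0.052 for S1pr1 (-0.42 to 0.31), -0.022 for S1pr2 (-0.28 to 0.23) and -0.19 for S1pr3 (-0.51 to 0.13). Those of Lpar1, Lpar2, Lpar3 and Lpar6 were 0.083, 0.0044, -0.073 and -0.061. All 8 overlapped between the groups, and none had an unadjusted p under 0.05. The intervals still allow differences of the size seen between the combination and a single drug for several genes, so these values do not show that the drugs act alike. Limma called 0 (0.0%) of all genes here, with 660 at an unadjusted p under 0.05 and a smallest adjusted p of 0.96.

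**Figure D2:**
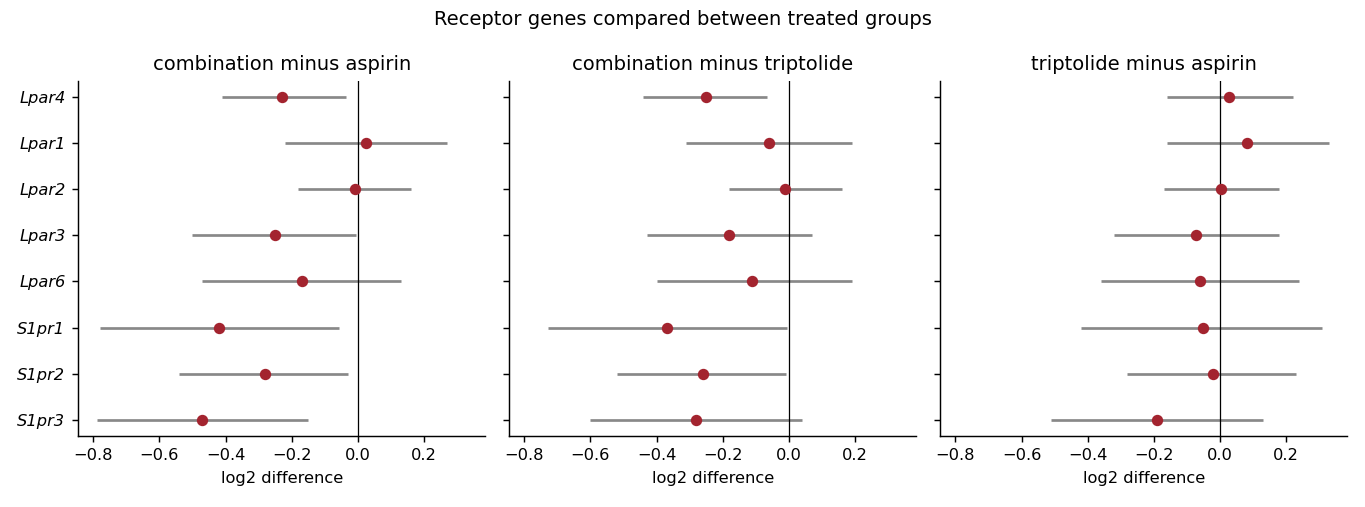
Log2 difference between treated groups (horizontal axis) for the 8 receptor genes in 3 comparisons, with points for the limma estimate and lines for its 95% confidence interval. The interval lies below 0 for Lpar3, Lpar4, S1pr1, S1pr2 and S1pr3 in combination minus aspirin and for Lpar4, S1pr1 and S1pr2 in combination minus triptolide, and it crosses 0 for all 8 in triptolide minus aspirin.

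The other S1P receptor genes measured were S1pr4, found on blood cells, and S1pr5, found on NK cells and in brain. S1pr4 was at 9.14 to 9.29 with the combination and at 9.05 to 9.35 with aspirin, and its difference was -0.00069 ± 0.1 (SE). S1pr5 ran from 7.89 to 8.12 with the combination and from 7.84 to 8.21 with aspirin, a difference of -0.043 ± 0.13. Against triptolide the differences were 0.059 for S1pr4 and -0.062 for S1pr5. For both genes the combination arrays overlapped those of each drug alone. The triptolide arrays of S1pr4, at 9.05 to 9.21, lay below both controls, at 9.45 and 9.25, which was so for 13.3% of all genes. Lpar5 had no matching row and was not analysed here.

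Several of the receptor genes are known endothelial genes, so their values were set beside 15 endothelial markers. In bulk tissue, fewer cells of a type and less RNA per cell cannot be told apart. The endothelial level, the mean log2 value of the 15 markers minus its mean over the arrays, ran from 0.31 to 0.41 on control arrays, 0.16 to 0.27 with aspirin, -0.15 to 0.19 with triptolide and -0.7 to -0.21 with the combination. All 15 markers had lower means with the combination than with aspirin, with a median difference of -0.65, and all 15 lower than with triptolide, with a median of -0.42. None passed limma's adjusted test, while all 15 were at an unadjusted p under 0.05 in both comparisons. Of all genes, 8.22% and 10.1% were lower at that threshold. Markers of other cell types had different means as well. All 10 alveolar type 1 markers were lower than with aspirin (median -0.61) and than with triptolide (-0.48), as were all 10 alveolar type 2 markers (-0.31 and -0.48) and all 6 mesothelial markers (-0.62 and -0.67), while all 9 B and plasma cell markers were higher (0.8 and 0.58). None of these passed limma's adjusted test either. Levels were taken for these lists in the same way. On combination replicates 1, 2 and 3 the type 1 level was -0.82, -0.35 and -0.08, against 0.17 to 0.27 with aspirin. The type 2 level was -0.75, -0.12 and -0.07, against -0.18 to 0.09, and the mesothelial level -0.79, 0.04 and -0.52, against -0.23 to 0.52. The type 2 level of replicates 2 and 3 thus lay within the aspirin range. The B and plasma cell level was 0.95, 0.64 and 0.21, against -0.58 to -0.13. Cdh5, the cadherin of endothelial junctions, was at 13.02 and 12.95 in controls, at 12.76, 12.9 and 12.67 with aspirin, at 12.51, 12.47 and 12.77 with triptolide and at 11.84, 12.14 and 12.29 with the combination. Its combination values were the lowest of the 11 arrays. Pecam1, the adhesion molecule CD31, differed from aspirin by -0.58 ± 0.11 (SE, limma adjusted p = 0.105), and Cdh5 by -0.68 ± 0.13 (adjusted p = 0.0974).

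Across the 11 arrays S1pr3 had a correlation with the endothelial level of r = 0.95, S1pr2 of 0.86, Lpar4 of 0.79 and S1pr1 of 0.78. Leaving out combination replicate 1 gave 0.91, 0.73, 0.78 and 0.68 in that order. These values were not particular to endothelial markers. With the alveolar type 1 level, S1pr3 had 0.94 (0.84 without that array), S1pr2 0.9 (0.67), S1pr1 0.73 (0.61) and Lpar4 0.63 (0.59). S1pr2 had 0.85 with the fibroblast level (0.32), S1pr1 had 0.8 with the lymphatic level (0.74), and S1pr3 had -0.92 with the B and plasma cell level (-0.87). S1pr1 also had 0.52 with the neutrophil level (0.61). That level was 3.02 on aspirin replicate 2, against -0.28 and -0.56 on aspirin replicates 1 and 3. The points share arrays and treatments, so these are descriptions without a test. With the endothelial level, Lpar6 had 0.63 and Lpar3 0.53 over all arrays but 0.2 and -0.1 without combination replicate 1. Both values thus rested on that array. Lpar1 had 0.04 and -0.66, and Lpar2 0.2 and 0.2. The Lpar4 aspirin values of 7.36 to 7.48 were below both controls. The endothelial level with aspirin, 0.2 ± 0.06 (SD, n = 3), was also below that of the controls, 0.36 ± 0.07 (SD, n = 2), without overlap. The part of these cell type markers in the receptor differences was not tested.

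**Figure D3:**
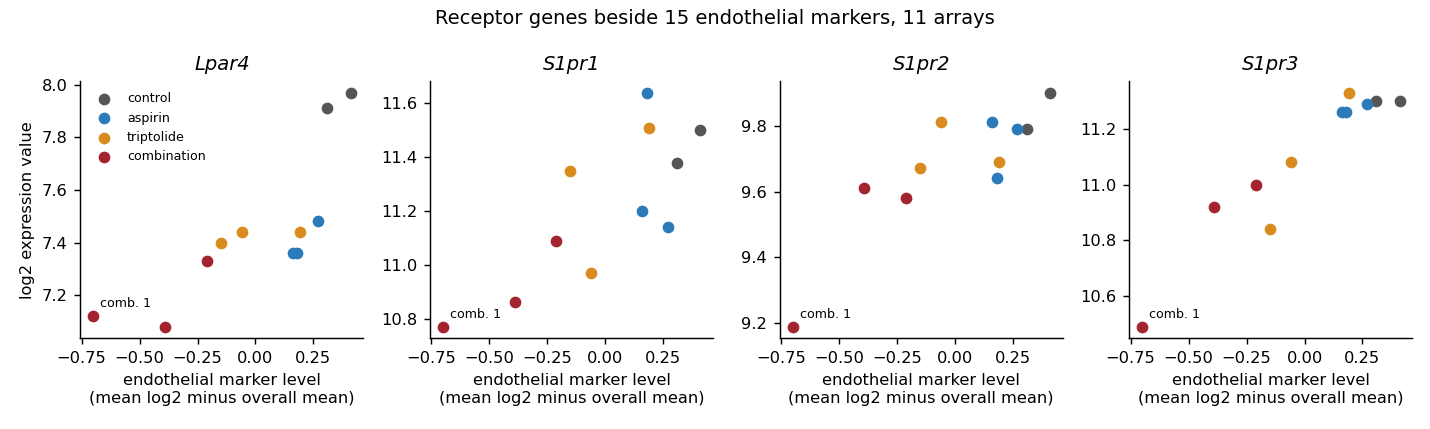
Log2 expression value (vertical axis) of Lpar4, S1pr1, S1pr2 and S1pr3 against the endothelial marker level (horizontal axis, mean log2 value of 15 markers minus its mean over the arrays), with a point for each of the 11 arrays coloured by group. S1pr3 lies nearest to a line (r = 0.95), and the 2 control arrays of Lpar4 lie above the treated arrays, with combination replicate 1 at -0.7 on the horizontal axis.

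Gja4, the gap junction protein connexin 37 of arteries, was at 9.94 and 9.83 in controls, 9.66 to 9.83 with aspirin, 8.95 to 9.27 with triptolide and 8.84 to 9.17 with the combination. It differed between combination and aspirin by -0.71 ± 0.11 (SE, limma adjusted p = 0.0967) and between combination and triptolide by -0.13. Pdgfrb, the growth factor receptor of pericytes, differed from aspirin by -0.54 ± 0.16 (adjusted p = 0.218), and 12 of the 14 pericyte and smooth muscle markers were lower with the combination. The level of this marker list was -0.52, -0.04 and 0.04 on combination replicates 1, 2 and 3, against -0.05 to 0.11 with aspirin. S1pr3 had r = 0.91 with that list, and 0.78 without combination replicate 1. The T and NK cell markers went the other way, with all 11 measured at a higher mean than with aspirin and a median difference of 0.2. None passed, and 2 were at an unadjusted p under 0.05, as were 2322 of all 19938 genes in either direction. Their level ran from -0.15 to -0.13 with aspirin and from 0.02 to 0.16 with the combination. Cd3e, a chain of the CD3 complex of T cells, differed by 0.23 ± 0.12 (adjusted p = 0.508). S1pr1, which T cells also carry, had r = -0.07 with the T and NK cell level.

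Among the receptors themselves, the correlation of Lpar4 over the 11 arrays was 0.69 with S1pr2, 0.63 with S1pr3 and 0.61 with S1pr1, and without combination replicate 1 these were 0.74, 0.56 and 0.51. S1pr2 and S1pr3 had r = 0.84 and, without that array, 0.57. The value of Lpar6 with S1pr2 went from 0.8 to 0.37, and those of Lpar1 went from 0.19 to -0.81 with S1pr2 and from 0.09 to -0.73 with S1pr3. Several of these relations thus rested on combination replicate 1.

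The genes whose values were most like those of Lpar4 over the 11 arrays, among 16989 genes considered, were Sp1 (r = 0.975), Tspan6 (0.959), Hfe (0.947), Nagpa (0.946), Vtn (0.941), Dchs1 (0.938), Gamt (0.938) and Klhl13 (0.937). Sp1, a transcription factor that binds GC boxes, was at 10.44 and 10.4 in controls, at 10.29 to 10.34 with aspirin, at 10.29 to 10.31 with triptolide and at 10.24 to 10.29 with the combination. Its range was small beside that of Tspan6, a tetraspanin, which was at 8.65 and 8.6 in controls, at 8.05 to 8.2 with aspirin, at 8.0 to 8.25 with triptolide and at 7.74, 7.78 and 8.04 with the combination. Hfe, the regulator of iron uptake, was at 8.91 on both controls and at 8.45 to 8.67 with the combination. The controls were highest for each of these 3 genes. Without combination replicate 1, 4 of the 8 kept a place among the 8 most alike. By Spearman's rank correlation none of the 8 did, so the list depends on the measure.

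For the other receptors the 3 most alike genes were Stk36, Cp and Ttc16 for Lpar1 (r = 0.925 to 0.907), Cdh18, Spx and Ovol2 for Lpar2 (0.981 to 0.927) and Aph1c, Fign and Gramd2 for Lpar3 (0.954 to 0.946). Those of Lpar6 were Zfp386, Samd9l and Cert1 (0.968 to 0.941) and those of S1pr1 were Nsg1, Plekha2 and Iscu (0.944 to 0.935). S1pr2 was most like Siae, Hoxa5 and Trim35 (0.981 to 0.964), and S1pr3 most like Samd5, Spop and Arhgef15 (0.972 to 0.967). No gene was shared between the lists of different receptors.

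The genes that make, break down and transport the ligands, those that act after the receptors, and the related receptors gave 110 measured of 117 listed. None passed limma's adjusted test in any comparison of treated groups. Against aspirin 77 of the 110 had a lower mean with the combination. At an unadjusted p under 0.05, 25 were lower (22.7%, beside 8.22% of all genes) and 5 higher, and the median over the 110 was -0.09. Against triptolide 78 had a lower mean, 30 were lower (27.3%, beside 10.1% of all genes) and 1 higher at that threshold, and the median was -0.15. When combination replicate 1 was left out, 15 genes were lower at that threshold against aspirin (13.6%, beside 5.33% of all genes) and 12 against triptolide (10.9%, beside 5.0%). With the Y-linked covariate 1 was lower in each comparison (0.909%), beside 0.958% of all genes against aspirin and 0.291% against triptolide. The Y-linked level went largely with the groups, so nothing is read from this fall.

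For LPA, Enpp2, the enzyme autotaxin that makes extracellular LPA, had no matching row and was not analysed here. The other 8 LPA synthesis genes included 5 below aspirin and 6 below triptolide. Pla1a, a phospholipase that releases lysophospholipids and was named after its values were seen, was at 7.79 and 7.78 in controls, at 8.09, 8.66 and 8.55 with aspirin, at 8.16, 8.54 and 8.38 with triptolide and at 7.87, 7.9 and 8.03 with the combination. The single-drug arrays of Pla1a were high, and the combination arrays were nearer to the controls. It differed by -0.5 ± 0.15 from aspirin (SE, limma adjusted p = 0.217) and by -0.43 from triptolide (adjusted p = 0.353). Of 14 genes of LPA breakdown, 9 were below aspirin and 9 below triptolide. Plpp1, a phosphatase that removes the phosphate from LPA and S1P, was at 11.19 and 11.01 in controls and at 10.57, 10.28 and 10.62 with the combination, below all 6 single-drug arrays, which ran from 10.67 to 11.2. Its difference from aspirin was -0.51 ± 0.13 (limma adjusted p = 0.175), and that from triptolide was -0.3 (adjusted p = 0.364). Combination arrays lay below all aspirin arrays for 9.86% of all genes and below all triptolide arrays for 9.53%. The related Plpp3 differed by -0.3 ± 0.17 from aspirin, with overlapping groups and its lowest value, 11.7, on combination replicate 1.

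For S1P, 11 of the 14 synthesis genes were below aspirin and 11 below triptolide, with medians of -0.2 and -0.32. The level of this list was -0.38, -0.17 and -0.02 on combination replicates 1, 2 and 3, against -0.05 to 0.06 with aspirin. Sphk1 and Sphk2, the kinases that make S1P from sphingosine, had differences from aspirin of 0.055 ± 0.14 and 0.033 ± 0.075, and from triptolide of 0.2 and 0.021. Of the genes for steps before the kinases, 3 are named after their values were seen: Sptlc2, a subunit of the enzyme that starts sphingolipid synthesis, differed from aspirin by -0.52 ± 0.18, Cers2, a ceramide synthase, by -0.42 ± 0.12, and Acer2, an alkaline ceramidase, by -0.59 ± 0.18. Their limma adjusted p-values were 0.275, 0.195 and 0.221. Sgpl1, the lyase that degrades S1P, differed by 0.066 ± 0.096 from aspirin and by -0.12 from triptolide. Spns2, the transporter that exports S1P from endothelial cells, was at 10.33 and 10.2 in controls, at 10.11 to 10.32 with aspirin, at 9.64, 9.96 and 10.14 with triptolide and at 9.6, 9.82 and 9.65 with the combination. Its combination arrays lay below all aspirin arrays (-0.54 ± 0.13, limma adjusted p = 0.135) and overlapped the triptolide arrays. Such separation from aspirin was seen for 9.86% of all genes. Apom, the apolipoprotein that carries S1P in plasma, differed from aspirin by -0.012 ± 0.11.

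After the receptors, 8 of 9 G protein subunit genes and 12 of 14 genes of the SRF and YAP response were below aspirin, with medians of -0.17 and -0.12. Against triptolide the counts were 8 and 13, with medians of -0.18 and -0.19. Levels of these lists, taken as for the endothelial markers, were furthest down on combination replicate 1. The G protein level was -0.35, -0.08 and -0.0 on combination replicates 1, 2 and 3, against -0.03 to 0.04 with aspirin. The SRF and YAP level was -0.43, -0.07 and -0.01, against -0.04 to 0.18 with aspirin and -0.11 to 0.32 with triptolide. Ccn1 and Ccn2, matricellular proteins induced by YAP, differed from aspirin by -0.15 ± 0.21 and 0.097 ± 0.15. Mrtfb, a coactivator of SRF named after its values were seen, was at 10.2, 10.39 and 10.57 with the combination, below all other arrays (10.74 to 11.02), and differed from aspirin by -0.5 ± 0.097 (SE, limma adjusted p = 0.108). Combination arrays lay below all control arrays for 20.5% of all genes, below all aspirin arrays for 9.86% and below all triptolide arrays for 9.53%. Of the 13 genes of receptor trafficking and desensitisation, 8 were below aspirin and 9 below triptolide. Arrb1, the receptor adaptor beta-arrestin 1, named after its values were seen, differed from aspirin by -0.38 ± 0.1 (adjusted p = 0.183). Cd69, a lymphocyte protein that removes S1pr1 from the cell surface, differed from aspirin by 0.31 ± 0.15 (adjusted p = 0.453) and from triptolide by 0.024.

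Among 16 related lysophospholipid, nucleotide and cannabinoid receptors, 6 were below aspirin and 10 above, with a median of 0.12. At an unadjusted p under 0.05, 4 were higher and 1 lower, beside 2322 of all 19938 genes, of which 1639 were lower. P2ry10, a lymphocyte receptor for lysophosphatidylserine named after its values were seen, was at 7.26 and 7.27 in controls, at 6.62, 7.13 and 7.14 with aspirin, at 7.88, 7.58 and 7.47 with triptolide and at 7.78, 7.8 and 7.63 with the combination. The aspirin arrays were lowest, and the triptolide and combination arrays overlapped above the controls. Its difference between combination and aspirin was 0.78 ± 0.15 (SE, limma adjusted p = 0.105).

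**Figure D4:**
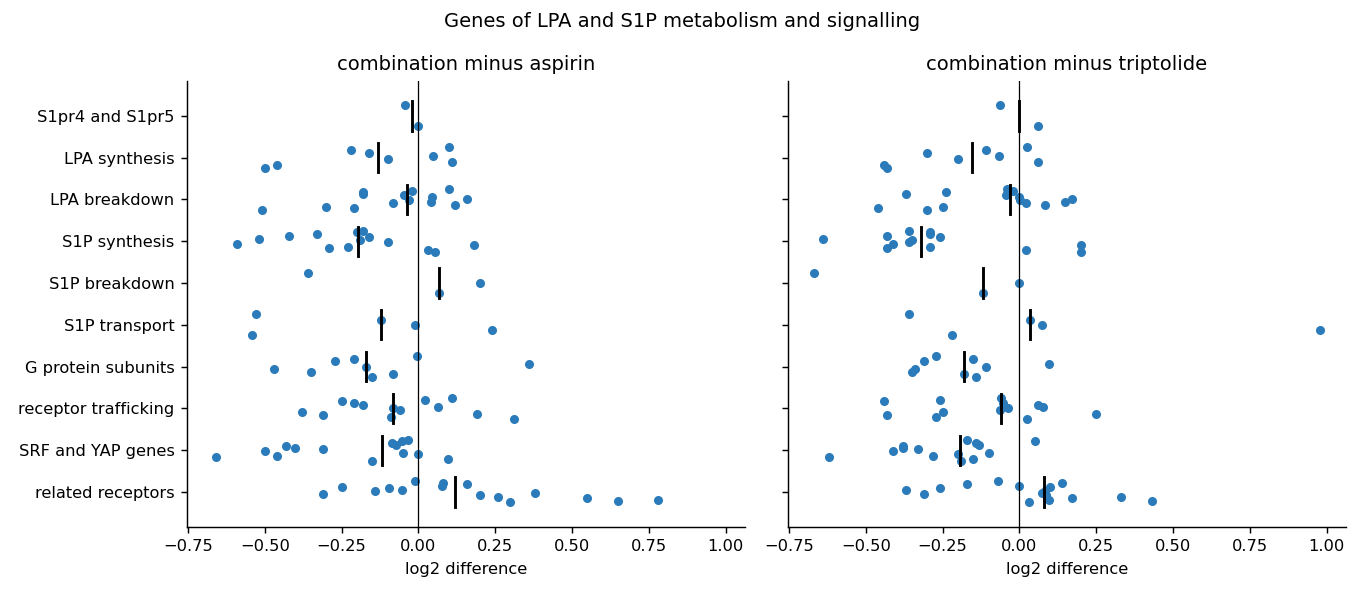
Log2 difference of measured pathway genes (horizontal axis, a point for each gene) in 10 of the lists, with a vertical bar for the list's median, for combination minus aspirin and combination minus triptolide. The S1P synthesis medians lie at -0.2 and -0.32 and those of the related receptors at 0.12 and 0.08. The point at 0.98 is Mfsd2b, a transporter of red cells, named after its values were seen, that was at 10.7 on combination replicate 1 and at 7.94 and 8.01 on the other 2 combination arrays.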

How the data were processed

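Per the labels, lung RNA came from a Qiagen RNeasy extraction and was hybridised as biotinylated cDNA to Affymetrix arrays. The deposited table holds 1 log2 expression value for each of 35556 rows and 11 arrays. RMA, a summary method for Affymetrix probes, and Partek are named in the submitters' processing notes, with no version. Roles, settings and the array's genome build were not given in the sources used here. The values have no detection calls, and their precision is limited by the number of arrays.

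GEO's platform annotation named the rows: 21789 carried 1 symbol, 1621 several and 12146 none. Rows with 1 symbol were kept, and the row with the highest mean stood for each of 999 genes with more than 1 row, which left 19938 genes. Of 287 listed symbols, 269 matched. Coordinates and promoters come from RefSeq tables of GRCm38.p6.

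Groups came from the sample titles. The model was limma 3.58.1 (lmFit and eBayes, R 4.3.3) over all 11 arrays and 4 groups, with no covariate or filter, 7 residual and 3.68 prior degrees of freedom, two-sided tests and Benjamini-Hochberg adjustment over all genes, called at an adjusted p under 0.05. The code was tested on simulated data. Differences from control carry no test because Lpar4 was chosen on them. Likeness is Pearson's r over the 11 arrays. Promoter windows on chromosome 18 were left out.

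The members and gene lists were chosen with earlier results of these data known. The text names the 8 members, a set list of other receptor, ligand and response genes, marker genes of other cell types, pathway genes that passed (none did), the 8 genes most like Lpar4 and the 3 most like each other member. Predicted genes, clones, small RNAs, odorant and pheromone receptors and antigen receptor segments were skipped for likeness. Genes outside this rule are marked in the text. Alternatives were median centring, quantile normalization, array weights, a trend in the prior, no moderation, the mean of all rows of a gene, leaving out the lowest 25% of mean levels, a Y-linked covariate, the replicate number as a block, Spearman's correlation and leaving out each array. Array weights were fitted gene by gene because limma's default method did not converge, a choice made after seeing the data.

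1 pathway list is not reported here by itself, though its genes are in the pathway totals.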

Additional observations from a re-analysis of the deposited data

How the results depend on the processing

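None of the 8 receptor genes was called under any setting run, and no pathway gene was called except with array weights, which called 13, and without combination replicate 3, which called 8; leaving out 1 array gave 0 to 8. Array weights ran from 0.149 for combination replicate 1 to 5.993 for aspirin replicate 3 and called 873 of all genes between combination and aspirin, 1 against triptolide and 137 between the drugs; without combination replicate 3, 704 and 24 were called in the first 2. Lpar4 kept its direction throughout, from -0.3 to -0.13 against aspirin and -0.34 to -0.18 against triptolide, with limma adjusted p from 0.0782 to 0.994 and from 0.0768 to 1.0. Values near 0 turned sign. With the Y-linked covariate Lpar1 against aspirin was -0.18 and Lpar2 0.00047. With array weights Lpar1 against triptolide was 0.025, Lpar6 against triptolide 0.07, Lpar2 against aspirin 0.0014 and S1pr1 between the drugs 0.2. Quantile normalization gave Lpar1 against triptolide as 0.03, and median centring gave Lpar2 between the drugs as -0.011. Leaving out 1 array gave Lpar1 -0.049 to 0.14 against aspirin and -0.13 to 0.056 against triptolide, Lpar2 -0.058 to 0.051, -0.028 to 0.0025 and, between the drugs, -0.046 to 0.062, and Lpar6 -0.25 to 0.042 against triptolide and -0.14 to 0.0099 between the drugs. Between the drugs S1pr1 ran from -0.17 to 0.11 and S1pr2 from -0.075 to 0.0099. The cause of these changes was not tested. Without combination replicate 1, an alternative chosen after seeing the data, receptor genes lower at an unadjusted p under 0.05 numbered 1 against aspirin (5 with all arrays) and 1 against triptolide (3), and pathway genes 15 (25) and 12 (30). With the Y-linked covariate, also added for these counts, receptor genes numbered 0 and 0 and pathway genes 1 and 1, and genes of any kind at that p fell from 2322 to 351 and from 2703 to 91. The Y-linked level went largely with the groups, so these counts do not separate it from the drugs. Of the 8 genes most like Lpar4, 4 were kept without that array and 0 by Spearman's correlation. Lpar4 lies in the lowest 25% of levels, so the filter on low levels gave no value for it. Whether replicate numbers pair the samples is not settled. Deviations of same-numbered arrays had r from -0.139 to 0.329 in 15 pairs, 6 of them over 0.1. Those of other-numbered arrays had r from -0.382 to 0.337 in 30 pairs, 4 of them over 0.1. With the replicate block Lpar4 was at -0.23 against aspirin and -0.25 against triptolide, and 0 genes were called.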
